A study of Arabidopsis thaliana with 3 samples.

Results

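Of 33857 locus identifiers measured in 3 organs of Arabidopsis thaliana, 200 were steady abundant loci, meaning nuclear loci with a high and nearly level transcript abundance in leaf, inflorescence and silique. They were chosen by the deposited values themselves: a locus on chromosomes 1 to 5 had to reach 50 FPKM in each organ, and its highest organ could exceed its lowest by at most 25%. FPKM counts sequenced fragments per kilobase of transcript, scaled to the size of the library, so it sets levels of genes of different length on 1 scale. The highest FPKM divided by the lowest FPKM of the 3 organs is called the ratio here, and values in a row of 3 follow the order leaf, inflorescence, silique. The floor of 50 FPKM was passed by 1985 of 33587 nuclear loci (5.91%), and 200 of those 1985 (10.1%) met the ratio limit. Because the rule used these values, the counts, levels and ratios are a description of the libraries and support nothing further.

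The plants were wild-type Col-0, the standard laboratory strain, and all 3 organs shared a mock treatment. Seedlings aged 3 weeks were shot with bare 0.6 µm gold particles, without plasmid DNA, as a stand-in for plasmid transformation, and kept under 16 hours of light per day. Leaves, inflorescences and siliques, the seed-bearing fruits, were taken 18 days later from plants aged 5.5 weeks. Each organ gave 1 strand-specific library of total RNA, and no unshot plants are among the 3 samples. With 1 library per organ there is no replicate check, no test was possible, and no spread between plants can be set beside any ratio. Sequencing depth is unknown, since the files give FPKM and no counts. In whole organs, a change in the number of cells of a type and a change in RNA per cell cannot be told apart.

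Marker genes followed the organ labels. RBCS1A, a Rubisco small subunit of green tissue, was at 21488, 7169 and 10868 FPKM in leaf, inflorescence and silique. SESA3, a seed albumin, was at 22796 FPKM in silique against 70.0 in leaf and 26.7 in inflorescence, and CRA1, a seed globulin, at 6563, 26.1 and 8.88 in the same order. GRP17 and GRP19, pollen coat proteins made by the anther tapetum, stood at 203 and 715 FPKM in inflorescence, and at most at 2.37 FPKM elsewhere.

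Genes with an even transcript level across organs are often called housekeeping genes, because many encode machinery that every living cell runs: protein synthesis and turnover, respiration, vesicle transport and RNA processing. In quantitative PCR such genes serve as the reference to which other transcripts are scaled, and an abundant, level transcript is the property sought. Plant genomes usually hold several copies of each such gene, and copies of a family can be used in different organs.

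The level of the steady loci was moderate for abundant transcripts. In leaf they ranged from 50.1 to 751 FPKM with a median of 81.3, in inflorescence from 50.1 to 789 with a median of 83.1, and in silique from 50.1 to 836 with a median of 83.3. Averaged over the organs, the median locus stood at 82.7 FPKM, against 149 FPKM for the other 1785 abundant loci. Of the 200, 131 averaged under 100 FPKM and 19 over 200 FPKM. Together they held 1.76%, 2.52% and 2.18% of the FPKM total of leaf, inflorescence and silique, whereas all abundant loci held 66.1%, 55.1% and 50.2%. Most of the signal carried by abundant loci was therefore at loci that differed between organs by more than the limit.

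"Equal" holds only within the limit of the rule. The median ratio was 1.15, with quartiles of 1.11 and 1.21, and the lowest was 1.01. The highest organ exceeded the lowest by at most 5% at 7 loci, by 5 to 10% at 36, by 10 to 15% at 52, by 15 to 20% at 46 and by 20 to 25% at 59. The largest group lay in the step next to the limit, so the 200 loci were the inner end of a continuous range. Among the other abundant loci the median ratio was 1.96, and 865 of 1785 differed by 2-fold or more. The files state no scaling between libraries, so 2 rescalings were tried, with each library divided by its median ratio to the geometric mean of the organs or by its upper quartile.

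**Figure D1:**
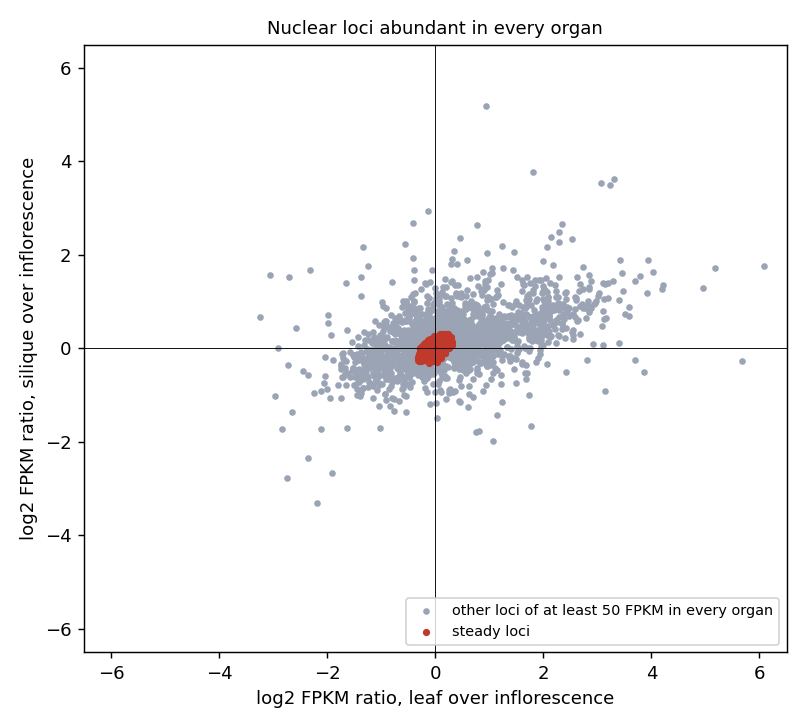
Each point is a nuclear locus of at least 50 FPKM in every organ, placed by its log2 FPKM ratio of leaf over inflorescence (horizontal) and of silique over inflorescence (vertical). The 200 steady loci (red) form the centre of 1 continuous cloud; the 1785 others (grey) spread mostly along the leaf axis.

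Gene names were assigned by position, and 152 of the 200 loci received one. The same naming covered 1532 abundant loci, so 9.92% of the named abundant loci were steady. Of the 152, 151 were protein-coding genes. The remaining one, AT2G14878, is a non-coding RNA gene in the reference table and stood at 69.6, 76.4 and 84.6 FPKM in leaf, inflorescence and silique. For 66 of the 152 the table gives a locus code in place of a symbol, and those are printed by code here, without a function unless the table's synonyms give one. Coordinates are 1-based on build TAIR10.

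Ubiquitin is the small protein that marks other proteins for destruction, and a polyubiquitin gene headed the named loci by mean level. UBQ11 (AT4G05050, chromosome 4, 2588004 to 2589386) was at 751, 699 and 836 FPKM in leaf, inflorescence and silique, a ratio of 1.2. UBQ4, a second polyubiquitin gene, was at 104, 101 and 93.4 FPKM. The other 2 polyubiquitin genes with a name by position were not level. UBQ10 was at 1760, 745 and 664 FPKM, and UBQ3 was at 858, 362 and 433 FPKM. UBQ10, UBQ3 and UBQ4 were highest in leaf, and UBQ11 in silique. These 4 genes encode near-identical ubiquitin repeats, and how the authors' counting divided shared reads is not given in the sources used here, so their separate levels are uncertain. The 4 were listed as a family after the values were seen. They are too few to set against the 9.92% of all named abundant loci.

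Further steps of protein turnover were represented by single genes. CDC48, an ATPase that pulls ubiquitinated proteins out of membranes and complexes, was at 165, 158 and 187 FPKM in leaf, inflorescence and silique. CUL1, the scaffold of the SCF class of ubiquitin ligases, was at 84.7, 84.1 and 78.1 FPKM, and EBF1, an F-box protein of such ligases that targets the ethylene regulator EIN3, at 70.4, 62.4 and 72.9. MMZ3, a ubiquitin-conjugating enzyme variant, was at 102, 91.2 and 113 FPKM. ATG8B, an autophagy protein of the ubiquitin-like fold, was at 73.5, 87.3 and 90.2 FPKM. In a ubiquitin pathway list, 2 of 16 abundant genes (12.5%) were steady, near the 9.92% of all named abundant loci, and the rescalings gave 4 and 3 of 17.

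The proteasome degrades ubiquitinated proteins. Among 23 abundant genes of a 26S proteasome list, 2 (8.70%) were steady, near the 9.92% of all named abundant loci, and both encode parts of the regulatory particle. RPN1A, a base subunit, was at 81.2, 84.0 and 89.4 FPKM in leaf, inflorescence and silique, and RPT5A, one of the ATPases of the base ring, at 90.3, 104 and 109. None of the 23 differed by 2-fold or more, against 663 of the 1532 named abundant loci, and the median ratio was 1.52. All 23 were highest in silique (20 after upper-quartile scaling of the libraries), and 21 were lowest in leaf. Of all abundant loci, 32.5% were highest in silique and 38.3% were lowest in leaf. RPT5A was steady under neither rescaling, with ratios of 1.295 and 1.32. AT5G23540 had the largest ratio of the 23, with 64.0, 97.0 and 112 FPKM.

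A histone gene was the second of the named loci. AT4G40030 (chromosome 4, 18555577 to 18556972), listed with the synonym histone 3.3, was at 660, 789 and 655 FPKM in leaf, inflorescence and silique. Histone H3.3 is the variant placed in chromatin outside DNA replication, in dividing and resting cells alike. AT4G40040 and AT5G10980, the other genes of a list of H3.3 genes, were at 536, 770 and 746 FPKM and at 286, 404 and 390 FPKM. Both were lower in leaf than in the reproductive organs, whereas AT4G40030 had nearly the same level in leaf and silique. The genes encode near-identical proteins, so the split of reads between them is uncertain. Their list was drawn up after the values were seen. Its 3 genes are too few to set against the 9.92% of all named abundant loci.

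Translation was represented by a few factors and by no ribosomal protein of the list examined. LOS1 (AT1G56070, chromosome 1, 20967930 to 20971742), which encodes elongation factor eEF2, the GTPase that moves the ribosome along the messenger RNA, was at 318, 374 and 372 FPKM in leaf, inflorescence and silique. The gene eIF6A, for a factor that acts in making the large ribosomal subunit, was at 69.5, 76.7 and 83.9 FPKM. ABCE2, of the family that recycles ribosomes, was at 54.1, 57.5 and 54.6 FPKM. LOS1 and eIF6A were the 2 steady genes among 19 abundant translation factors, whose median ratio was 1.47. That share of 10.5% was close to the 9.92% of all named abundant loci. Both genes were steady under neither rescaling, and with the upper quartile 0 of 19 were. ELF5A-3 had the largest ratio of that list, with 351, 88.1 and 321 FPKM in leaf, inflorescence and silique.

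Cytosolic ribosomal proteins, from a list drawn up after the values were seen, differed more between organs. None of 26 abundant genes was steady, against 9.92% of all named abundant loci. Of the 26, 24 differed by 2-fold or more, against 663 of the 1532 named abundant loci. Their median ratio was 2.23, against 1.84 for all named abundant loci. All 26 were lowest in leaf, also after both scalings of the libraries tried, and 22 were highest in inflorescence. Of all abundant loci, 38.3% were lowest in leaf and 23.1% were highest in inflorescence. RPS10B had the smallest ratio of the 26, with 199, 320 and 288 FPKM, and PFL the largest, with 84.1, 281 and 207.

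**Figure D2:**
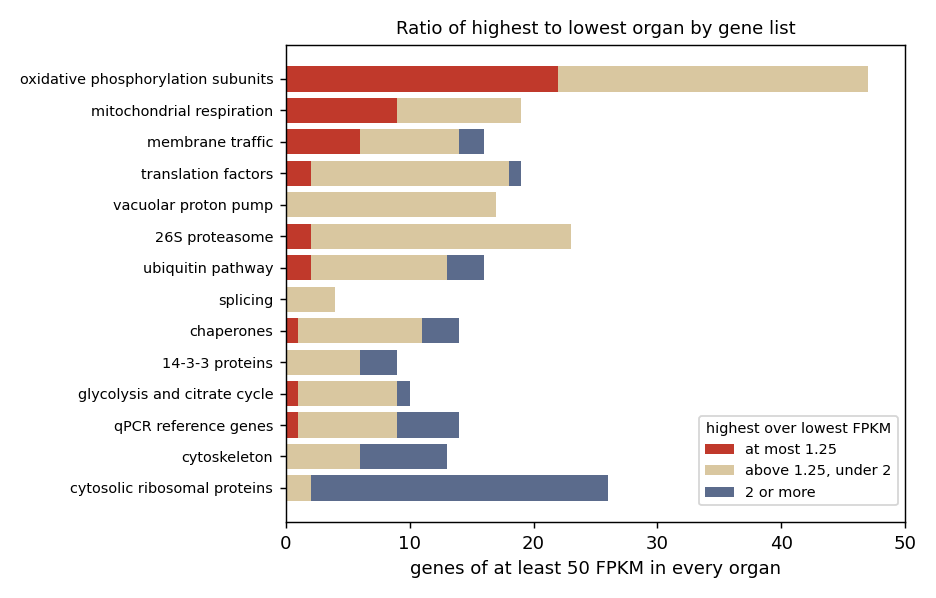
Each bar counts the genes of a list that reached 50 FPKM in every organ, divided by the ratio of highest to lowest organ: at most 25% above the lowest (red), more than that and under 2-fold (sand), and 2-fold or more (blue). Steady genes made up 22 of 47 oxidative phosphorylation subunits and 0 of 26 cytosolic ribosomal proteins, against 9.92% of all named abundant loci. Both of these lists were drawn up after the values were seen.

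Mitochondrial respiration held more steady genes than any other list examined. Respiration passes electrons through complexes I to IV of the inner membrane, pumping protons out of the matrix, and complex V, the ATP synthase, uses their return to make ATP. Of 74 listed subunit genes of the 5 complexes, 60 were named by position and 47 were abundant, and 22 of the 47 were steady (46.8%, against 9.92% of all named abundant loci). The median ratio of the 47 was 1.26, against 1.84 for all named abundant loci, and none of the 47 reached 2-fold. Their ratios ran from 1.01 to 1.87, and 41 of the 47 (87.2%) were at most 1.5, a limit met by 30.1% of all named abundant loci. This list was drawn up from general knowledge after the values had been seen, and the reference table names 16 of its 22 steady genes by code only, so their place in a complex rests on the list.

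Among complex I genes that carry a symbol, 2 of the electron-input arm were steady. CI51, the 51 kDa subunit, was at 114, 101 and 110 FPKM in leaf, inflorescence and silique. EMB1467, the 76 kDa subunit in the table's synonyms, was at 70.7, 74.4 and 77.9. AT4G02580 and FRO1, of a mitochondrial respiration list, were abundant and not steady. They were at 91.1, 116 and 117 FPKM and at 155, 121 and 164 FPKM. The carbonic anhydrase-like domain is a feature of plant complex I, and 2 of its 5 listed genes were steady as deposited. GAMMA CA2 was at 79.2, 92.7 and 92.9 FPKM, and GAMMA CAL2 at 56.8, 69.0 and 60.2, and neither was steady under either rescaling. GAMMA CA1, GAMMA CA3 and GAMMA CAL1 were under 50 FPKM in some organ, with ratios of 1.42, 1.40 and 1.62. In all, 13 of 25 abundant complex I genes of the list were steady as deposited (52.0%, against 9.92% of all named abundant loci). Rescaling lowers that count. AT5G47570 of the list was steady under neither rescaling, with ratios of 1.36 and 1.39. AT3G03070 and AT3G03100 were steady only with the upper quartile. The most abundant of the 13 was AT3G08610, at 241, 212 and 241 FPKM in leaf, inflorescence and silique. The most even as deposited was AT1G49140, at 93.4, 89.9 and 90.5.

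ATP synthase had 5 steady genes among 9 abundant ones as deposited. These 9 are too few to set a share against the 9.92% of all named abundant loci. ATP5, listed as the delta subunit of the mitochondrial enzyme, was at 204, 232 and 217 FPKM in leaf, inflorescence and silique. ATP3, the gamma subunit, which forms part of the central rotating shaft, was at 161, 170 and 181 FPKM. AT5G47030 of the same list was at 253, 257 and 276 FPKM. The list also holds AT5G08670 and AT5G08680, which lie 751 bp apart on chromosome 5. AT5G08670 was at 149, 186 and 163 FPKM, close to the ratio limit, and AT5G08680 at 93.4, 88.8 and 98.2. The first was highest in inflorescence and the second lowest there, and how reads common to both were counted is not stated. ATP5 and AT5G08670 were steady under neither rescaling.

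The remaining complexes had fewer abundant genes, also too few to set a share against the 9.92% of all named abundant loci. In complex III, 3 of 8 were steady, and among them AT1G51980 (chromosome 1, 19323382 to 19326916) had the smallest ratio of all named steady loci, with 84.9 FPKM in leaf and 85.4 in both other organs. In complex IV, 1 of 3 was steady, AT4G21105, at 431, 405 and 397 FPKM in leaf, inflorescence and silique, which made it the fourth highest of the named steady loci. In complex II, neither of 2 abundant genes was steady, and SDH4, a membrane anchor of succinate dehydrogenase, had the largest ratio of the 47 with 95.4, 144 and 178 FPKM. COX6B of complex IV was at 59.6, 84.5 and 96.3 FPKM. Leaf was usually the lowest organ of the subunits, steady ones included: 35 of the 47 were lowest in leaf, 10 in inflorescence and 2 in silique. Of all abundant loci, 38.3% were lowest in leaf. After scaling by the median ratio or the upper quartile, 39 and 38 of the 47 were lowest in leaf. Another 13 named subunit genes were under 50 FPKM in some organ and could not enter.

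**Figure D3:**
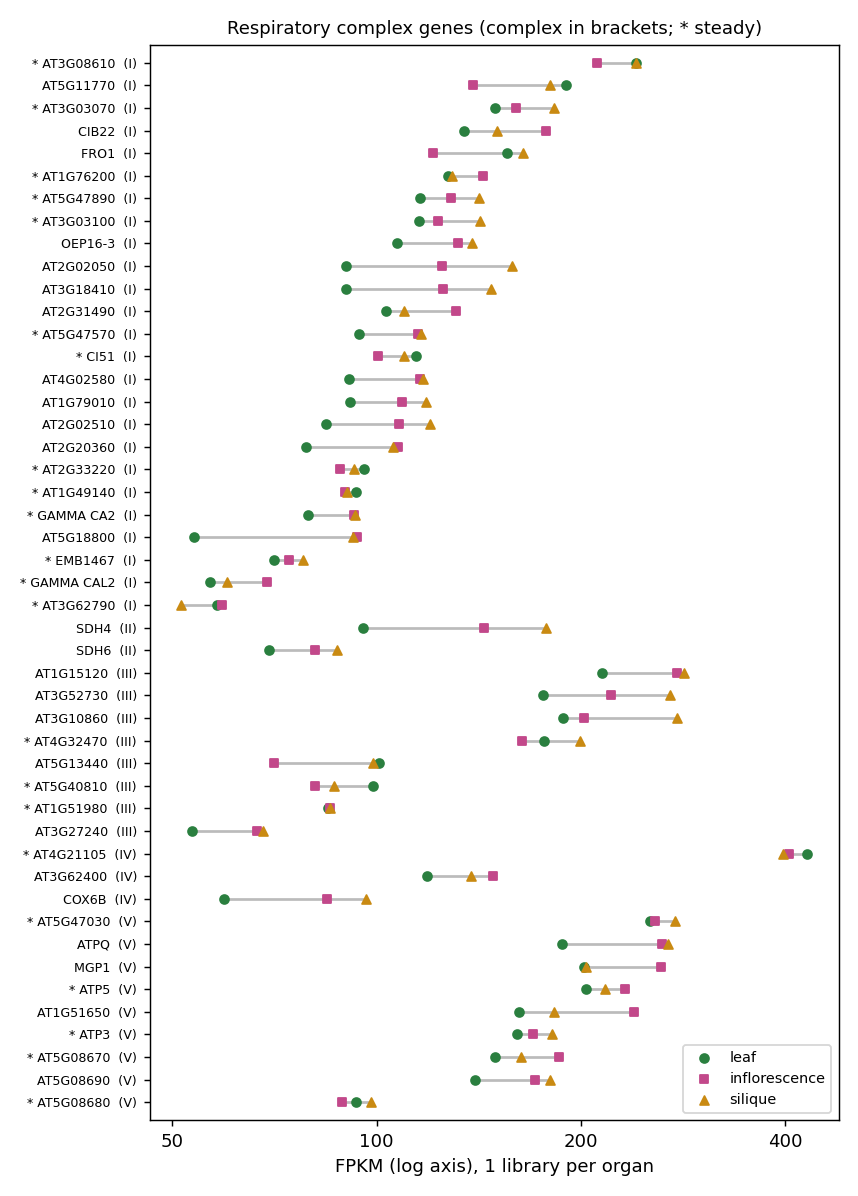
FPKM on a log axis in leaf (circle), inflorescence (square) and silique (triangle) for the 47 listed subunit genes of respiratory complexes I to V that reached 50 FPKM in every organ, grouped by complex, with an asterisk for the 22 steady ones. Grey lines join the lowest and highest organ; the circle for leaf is the leftmost mark at 35 of the 47.

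An overlapping list of mitochondrial respiration genes gave 9 steady of 19 abundant (47.4%, against 9.92% of all named abundant loci). Under the scalings by median ratio and by upper quartile, 7 and 9 of the 19 were steady. The list repeats steady subunits named above, such as ATP3 and CI51, so its count is not independent of theirs. It adds VDAC1, the channel through which metabolites cross the outer membrane, at 157, 191 and 188 FPKM in leaf, inflorescence and silique. Other mitochondrial proteins among the 200 loci were PHB2, a prohibitin of the inner membrane, at 52.1, 55.5 and 59.4 FPKM, and TXR1, whose synonym PAM16 is a component of the protein import motor, at 52.8, 50.2 and 58.5. AT5G20090, with the synonym mitochondrial pyruvate carrier 1, was at 101, 105 and 115 FPKM. RIP1, which takes part in editing organellar RNA, was at 75.9, 93.0 and 80.0 FPKM. These loci had silique as the highest organ except VDAC1 and RIP1, which were highest in inflorescence.

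Rescaling the libraries changes how even respiration appears. After scaling by the median ratio, 14 of 47 subunit genes were steady and their median ratio was 1.36, beside 10.8% of all named abundant loci. With the upper quartile as divisor, 17 of 46 were steady and the median ratio was 1.38, beside 11.4% of all named abundant loci. Both scalings lower the leaf values relative to inflorescence, and leaf was already the lowest organ at most of these genes.

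A membrane traffic list had 6 steady genes of 16 abundant ones (37.5%, against 9.92% of all named abundant loci) and a median ratio of 1.38. After rescaling by median ratio and upper quartile 4 and 5 of 16 were steady. ARFA1E (AT3G62290, chromosome 3, 23051544 to 23053817), a small GTPase of the ARF family that recruits coat proteins to Golgi membranes, was at 520, 648 and 547 FPKM in leaf, inflorescence and silique. Clathrin forms the coat of endocytic vesicles, and both heavy chain genes were steady. AT3G11130, with the synonym clathrin heavy chain 1, was at 55.6, 53.3 and 57.1 FPKM, and AT3G08530, clathrin heavy chain 2, at 58.2, 60.4 and 65.2. At 9760 and 8767 bp these were also the widest 2 of the named steady loci. The 2 genes are close copies of each other, so reads may be divided between them.

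Rab GTPases, which mark membrane compartments and guide vesicles to them, supplied 3 of the steady loci. RABE1c, of the group that acts on the way to the plasma membrane, was at 84.1, 91.1 and 75.4 FPKM in leaf, inflorescence and silique. RHA1, a Rab5-type GTPase of endosomes, was at 67.5, 71.6 and 78.8 FPKM, and RA-5, a RABD-type GTPase of the early secretory route, at 63.9, 60.5 and 66.4. The syntaxin SYP51, which takes part in membrane fusion, was at 70.5, 73.6 and 83.1 FPKM. DL1, also named DRP1A, a dynamin-related protein of membrane scission and cell plate formation, was at 75.4, 84.4 and 86.2 FPKM. Of the abundant genes in the list, SAR1B, a GTPase of the COPII coat, was the least even, at 103, 134 and 270 FPKM. The list counted both clathrin chains, ARFA1E, RABE1c, RHA1 and the nuclear transport GTPase RAN3. Of these 6, ARFA1E, RABE1c and RAN3 were steady under neither rescaling.

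RAN GTPases set the direction of transport through nuclear pores. RAN3 was the steady one of 3 named genes as deposited, at 140, 168 and 161 FPKM in leaf, inflorescence and silique, and its ratio was 1.35 and 1.37 after the rescalings. RAN-1 was lowest in inflorescence, with 350, 245 and 381 FPKM, and RAN2 highest in silique, with 144, 165 and 217. Among calmodulins, the calcium sensors of the cytosol, 1 of 6 named genes was steady: CAM5, at 127, 123 and 140 FPKM. CAM7 was the least even of the 6, at 52.0, 123 and 91.9 FPKM, and CAM3 and CAM4 were at 309, 239 and 330 FPKM and at 196, 296 and 295 FPKM. All of the genes named here from these families reached 50 FPKM in every organ, so evenness and not abundance separated them under the rule. Calmodulin and RAN genes also have similar copies, and how shared reads were divided among them is not given. Both families were listed after the values were seen. Each is too small to set against the 9.92% of all named abundant loci.

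Genes that copy and process RNA were spread thinly among the steady loci. NRPB4 and NRPB10, subunits of RNA polymerase II, were at 85.9, 88.8 and 94.7 FPKM and at 80.6, 95 and 98.7 FPKM in leaf, inflorescence and silique. EIF4A-III, an RNA helicase of the exon junction complex, was at 73.5, 88.2 and 88.8 FPKM. EMB2816, also named LSM7, belongs to a ring that binds the U6 RNA or messenger RNA ends, and was at 64.0, 72.7 and 78.3 FPKM. These 4 were lowest in leaf. The splicing factor RS2Z32 was at 61.7, 75.7 and 63.3 FPKM, and PTB3, a polypyrimidine tract-binding protein, at 58.8, 60.5 and 55.9. UBP1A, which binds oligouridylate stretches, was at 88.9, 85.9 and 73.3 FPKM, and the RNA helicase DRH1 at 83.3, 85.6 and 70.7, both lowest in silique. GR-RBP2, a glycine-rich RNA-binding protein, was at 153, 176 and 188 FPKM. None of the 4 abundant genes of a splicing list was steady as deposited, and 1 of 5 was under each rescaling. The list is too small to set against the 9.92% of all named abundant loci.

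Kinases, phosphatases and other signalling genes were steady at lower levels. Shaggy-like kinases are plant relatives of GSK3, known from brassinosteroid signalling: SK 11 was at 76.5, 80.1 and 75.3 FPKM in leaf, inflorescence and silique, and SKdZeta at 66.0, 70.0 and 76.8. PP2A-3, a catalytic subunit of protein phosphatase 2A, was at 50.9, 59.9 and 55.5 FPKM. TMK1, a receptor-like kinase of auxin responses at the cell surface, was at 54.7, 50.1 and 51 FPKM, and the calcium-dependent kinase CDPK6 at 53.5, 53.4 and 58.4. Transcription factors were also present. ERF3, of the ethylene response factor family, was at 52.5, 51 and 56.8 FPKM, SPL1 at 75.6, 61.5 and 67.2, and BZIP25 at 61.5, 52.2 and 54.9. CKS1, which binds cyclin-dependent kinases, was at 106, 94.4 and 118 FPKM.

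Protein folding contributed HSP81-2, also named Hsp90.2, a cytosolic chaperone that helps many kinases and receptors reach their active form. It was at 105, 112 and 108 FPKM in leaf, inflorescence and silique, and it was the steady gene among 14 abundant chaperones of a list whose median ratio was 1.65. That share of 7.14% stood near the 9.92% of all named abundant loci, and 3 of 14 were steady under each rescaling. ROC1, a cyclophilin, was the least even of the 14, at 655, 190 and 272 FPKM. FKBP12, a prolyl isomerase, was at 203, 200 and 163 FPKM, and PIN1AT, a prolyl isomerase of another family, at 122, 114 and 127.

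Metabolic enzymes of several compartments were steady. The cytosolic isocitrate dehydrogenase cICDH (AT1G65930, chromosome 1, 24538886 to 24542658), which supplies NADPH and 2-oxoglutarate, was at 309, 278 and 337 FPKM in leaf, inflorescence and silique. ALDH11A3, a glyceraldehyde-3-phosphate dehydrogenase that makes NADPH without phosphorylation, was at 185, 154 and 165 FPKM, and CYT1, which makes the GDP-mannose used for ascorbate, glycans and walls, at 167, 193 and 169. Plastid enzymes were among them, and the rule itself kept their leaf levels close to those of the reproductive organs. PKP-ALPHA, a plastid pyruvate kinase, was at 148, 151 and 179 FPKM, NADP-ME4, a plastid malic enzyme, at 98.5, 116 and 101, and SAPX, a stromal ascorbate peroxidase, at 52.6, 50.1 and 50.8. HEMB1 and HEME2, enzymes of the tetrapyrrole pathway that leads to chlorophyll and haem, were at 92.4, 79.3 and 94.3 FPKM and at 81.7, 66.1 and 69.5 FPKM.

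Other metabolic and transport genes were steady as well. APS2, an ATP sulfurylase of sulfate assimilation, was at 77.9, 65.6 and 66.0 FPKM in leaf, inflorescence and silique. ACX1, an acyl-CoA oxidase of peroxisomal fatty acid breakdown, was at 77.7, 73.5 and 81.1 FPKM. GLY2, a glyoxalase that clears methylglyoxal products, was at 112, 94.2 and 96.4 FPKM, and NTRA, a thioredoxin reductase, at 52.3, 62.1 and 56.9. AAP1, an amino acid permease of the plasma membrane, was at 96.5, 92.2 and 97.9 FPKM. RD20, a caleosin known for its induction by drought and abscisic acid, was at 182, 182 and 193 FPKM, a ratio of 1.06. PME1, a pectin methylesterase of the cell wall, was at 56.0, 58.6 and 57.8 FPKM. Stress-inducible and cell wall genes were thus found beside the machinery genes. In a list of glycolysis and citrate cycle genes, 1 of 10 abundant genes was steady as deposited, about the share of all named abundant loci, and 2 of 10 under each rescaling, and FBA8, a cytosolic aldolase, was the least even at 123, 239 and 327 FPKM.

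**Figure D4:**
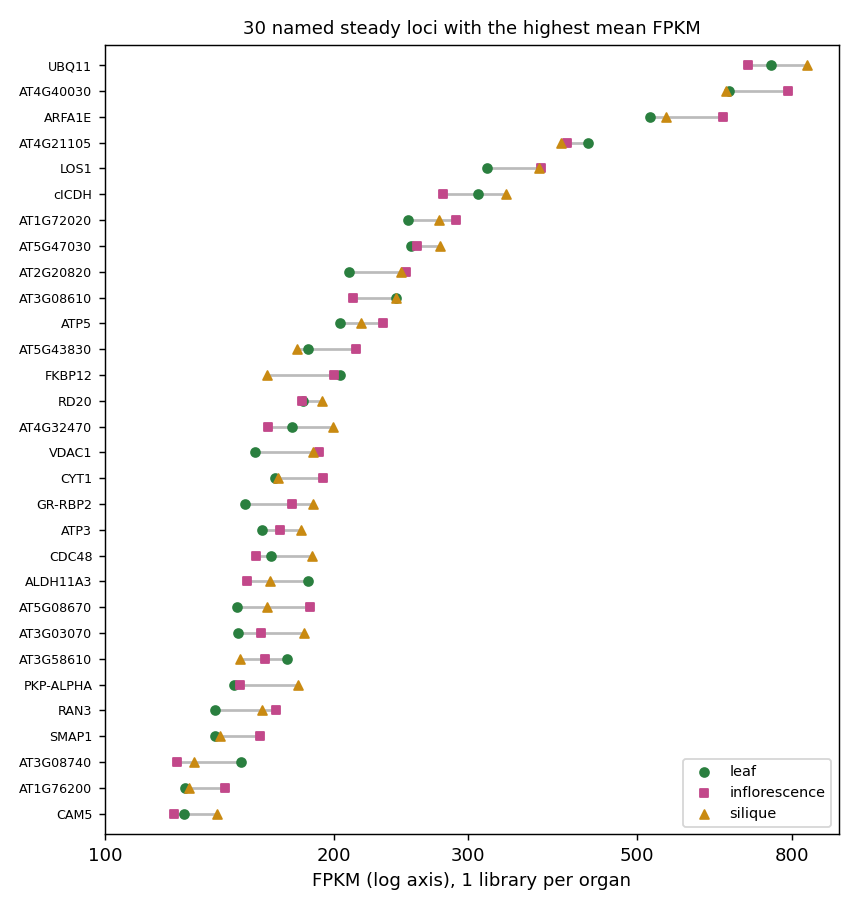
FPKM on a log axis in leaf (circle), inflorescence (square) and silique (triangle) for the 30 named steady loci with the highest mean level, with a grey line from the lowest to the highest organ. The line spans at most 25% of the lowest value by the rule, and which organ is highest differs from gene to gene.

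Several lists had no steady gene as deposited, against 9.92% of all named abundant loci. At that share, lists of so few genes would hold few steady ones. The vacuolar proton pump acidifies the vacuole and the trans-Golgi network, and none of 17 abundant subunit genes was steady. None of the 17 differed by 2-fold or more, against 663 of the 1532 named abundant loci. Their median ratio was 1.5, and 16 of the 17 were lowest in inflorescence (15 and 12 after scaling by the median ratio and the upper quartile). Of all abundant loci, 44.2% were lowest in inflorescence. VHA-A3, a membrane subunit of the vacuolar form, was at 127, 75.4 and 86.2 FPKM, the largest ratio of the 17. Under the scalings by median ratio and by upper quartile, 1 and 4 of the 17 would be steady. None of 13 abundant cytoskeleton genes was steady, and TUA4, an alpha-tubulin, ranged from 117 FPKM in leaf to 466 in inflorescence and 679 in silique. None of 9 abundant genes of 14-3-3 proteins was steady, and GRF2 was at 61.6, 147 and 166 FPKM.

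Of 25 genes commonly used as references in quantitative PCR, 22 were named by position, 14 were abundant, and 1 of these, UBQ11, was steady. That share of 7.14% was near the 9.92% of all named abundant loci, and 2 of 14 were steady under each rescaling. ACT2, an actin of vegetative tissue, was at 498, 238 and 303 FPKM in leaf, inflorescence and silique. The other actins differed in other directions: ACT7 was at 302, 372 and 585 FPKM and ACT8 at 115, 238 and 186. GAPC1 and GAPC2, cytosolic glyceraldehyde-3-phosphate dehydrogenases, were at 251, 270 and 417 FPKM and at 908, 579 and 671 FPKM. The median ratio of the 14 was 1.94, near the 1.84 of all named abundant loci. Of the 14, 5 differed by 2-fold or more, against 663 of the 1532 named abundant loci.

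Tubulin genes were the least even of the reference list. TUB2, a beta-tubulin, was at 109, 356 and 234 FPKM in leaf, inflorescence and silique, and TUB6 at 89.3, 130 and 258. UBQ5 was at 374, 747 and 608 FPKM, and AT5G60390, named by code in the table, at 806, 1350 and 1252. Ubiquitin-conjugating enzymes came closer to the limit in 1 case: UBC10 was at 677, 863 and 650 FPKM, a ratio of 1.33, whereas UBC9 was at 234, 121 and 150. YLS8 was at 206, 154 and 197 FPKM, a ratio of 1.34.

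Several reference genes met the ratio limit and missed the floor of 50 FPKM. PP2AA3, a scaffold subunit of protein phosphatase 2A, was at 38.1, 35.3 and 38.2 FPKM in leaf, inflorescence and silique, a ratio of 1.08. PTB1 was at 18.8, 16.7 and 19.6 FPKM, and AT2G28390 at 20.9, 20.3 and 24.9. AT5G46630 was at 49.9, 46.9 and 55.3 FPKM, just under the floor in 2 organs. AT4G34270 and AT4G33380 passed neither limit, with 27.3, 25.8 and 32.4 FPKM and 33.7, 33.0 and 26.5 FPKM. CBP20 was at 26.4, 36.5 and 28.7 FPKM, and AT5G15710 at 7.83, 5.92 and 9.02. The floor thus left out low genes that were as level as the loci it kept.

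At the ratio limit, loci on either side had nearly the same values. Just inside it, besides AT5G08670, ARFA1E, CKS1 and FKBP12, was AT5G66240, at 66.0, 59.6 and 74.4 FPKM in leaf, inflorescence and silique. Just outside, ROC3, a cyclophilin, was at 825, 659 and 717 FPKM, and SAR2, a GTPase of the COPII coat, at 142, 113 and 142. LCR68, a small cysteine-rich protein, was at 398, 386 and 318 FPKM, SPT42, a transcription elongation factor, at 84.7, 72.0 and 67.7, and AT3G62400 at 119, 149 and 138. Each of these 5 missed the limit in the third decimal of the ratio. At the even end, besides AT1G51980 and AT1G49140, were SAPX, PME1 and AT3G53580, the last at 53.1, 54.2 and 53.9 FPKM.

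The small remaining differences among the 200 loci had a direction that turned with the scaling of the libraries. As deposited, silique was the highest organ at 88 loci (44%), leaf at 60 (30%) and inflorescence at 52 (26%). Silique was also the lowest organ least often, at 38 loci, against 83 for leaf and 79 for inflorescence. After median-ratio scaling the highest organ was inflorescence at 95 of the 200 and silique at 85, and after upper-quartile scaling inflorescence at 144 and silique at 35. Leaf was then the lowest organ at 134 and 124 of them. Among the other 1785 abundant loci, leaf was the highest at 820 (45.9%), silique at 558 (31.3%) and inflorescence at 407 (22.8%). The commonest order was silique above inflorescence above leaf at the steady loci (48 of 200) and leaf above silique above inflorescence at the others (589 of 1785). The median log2 difference of leaf from inflorescence was 0.00 at the steady loci and 0.30 at the others, and that of silique from inflorescence 0.07 and 0.23. Comparisons between organs share libraries, so these figures are not independent of each other.

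Leaf was the organ that most often took the other abundant loci out of the band. At 564 of the 1785, inflorescence and silique lay within 25% of each other while leaf lay outside it from both. The same held with inflorescence apart at 213 loci and with silique apart at 188. At 636 no pair of organs was that close, and at 184 there were 2 such pairs.

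Steady loci were wider on the genome than other abundant loci. A locus here is the span between its deposited start and end, introns included. The median width was 2448 bp, with quartiles of 1839.5 and 3722.5, against 1990 bp, with quartiles of 1409 and 2964, for the other abundant loci. Among loci alone at their position the medians were 2199 and 1798 bp. The narrowest named steady loci were AT5G65207, of 400 bp, at 95.9, 78.1 and 87.9 FPKM in leaf, inflorescence and silique, and RTFL12, of 427 bp and of a family of small peptide genes, at 108, 104 and 125. AT5G53880 followed with 510 bp at 66.3, 72.8 and 71.4 FPKM, and after the clathrin genes the widest was AT4G02480, with 7088 bp at 67.0, 55.9 and 60.03 FPKM. The number of RefSeq transcripts per coding gene was alike in both groups, with a mean of 1.86 and 1.81 and a single transcript at 53.0% and 53.5% of the genes.

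The share of steady loci was lower at higher levels and higher at greater widths. By the FPKM of the lowest organ, 12.5% of abundant loci from 50 to 100 FPKM were steady (139 of 1113), 8.19% from 100 to 200 (44 of 537), 5.20% from 200 to 500 (14 of 269) and 4.55% at 500 or more (3 of 66). By width, among loci alone at their position, it was 5% under 1000 bp (10 of 200), 7.47% from 1000 to 2000 bp (55 of 736), 12.97% from 2000 to 3000 bp (59 of 455), 14.9% from 3000 to 5000 bp (29 of 194) and 18.8% at 5000 bp or more (6 of 32). Both gradients were also present together: in the band of 50 to 100 FPKM, 9.21% of loci under 2000 bp and 16.2% of wider ones were steady. At 200 FPKM or more these shares were 4.41% (9 of 204) and 5.97% (4 of 67), so few loci stand behind the top bands. The depth behind an FPKM is unknown, and the part of sampling error in these shares was not tested.

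**Figure D5:**
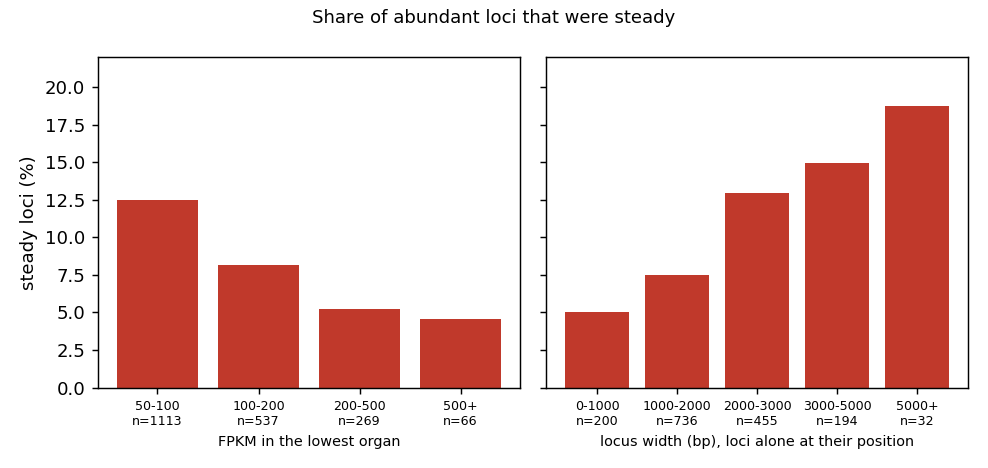
Bars give the percentage of abundant nuclear loci that were steady, by the FPKM of the lowest organ and by locus width for loci alone at their position, with the number of abundant loci (n) under each bar. The share went from 12.5% in the lowest band of level to 4.55% in the highest, and from 5% in the narrowest band of width to 18.8% in the widest.

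The steady loci lay on all 5 chromosomes in similar proportion. They made up 8.88% of the abundant loci of chromosome 1 (45 of 507), 10.4% of chromosome 2 (33 of 318), 9.34% of chromosome 3 (38 of 407), 12.3% of chromosome 4 (38 of 308) and 10.3% of chromosome 5 (46 of 445). Close neighbours were rare, with 8 pairs of steady loci separated by at most 10 kb. Besides the complex V pair on chromosome 5, AT3G03070 and AT3G03100 of the complex I list lay 7224 bp apart on chromosome 3, at 149, 160 and 182 FPKM and at 115, 123 and 142 FPKM. AKR2B and NTRA lay 6306 bp apart and PHB2 and ABCI18 9253 bp apart. TOM1, a membrane protein that tobamoviruses use to multiply, had the unnamed locus XLOC_024938 at 227 bp.

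The 48 loci without a name were mostly at shared positions. Of the 200 steady loci, 159 (79.5%) were alone at their position, 35 shared it with 1 other identifier and 6 with 2 or more. A shared position is a span for which the files give several identifiers, and it can hold genes on both strands. Where 2 identifiers shared a span, the partner was never itself steady. It stayed under 5 FPKM in every organ at 7 of the 35, reached 50 FPKM in every organ at 4, and lay between at 24. Of the 28 partners that reached 5 FPKM somewhere, 11 differed between organs by 2-fold or more.

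Some of these pairs held a level and an organ-biased transcript in the same span. XLOC_005241 (chromosome 1, 5773592 to 5778484) was at 205, 179 and 202 FPKM in leaf, inflorescence and silique, while its partner XLOC_000907 was at 939, 172 and 320. XLOC_010956 (chromosome 2, 17774903 to 17777717) was at 220, 199 and 226 FPKM beside XLOC_013747 at 213, 33.8 and 40.2. XLOC_015271 was at 62.7, 68.0 and 71.9 FPKM beside a partner at 310, 63.2 and 76.0. These 3 spans are examples in which the partner was highest in leaf by a wide margin, which the rule excludes for the steady identifier. Partners at other spans included low ones and ones highest in another organ. The values of both identifiers are the authors' own division of the reads.

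The highest unnamed steady loci were of differing kinds. XLOC_012568 (chromosome 2, 9827113 to 9830410) was at 472, 412 and 497 FPKM in leaf, inflorescence and silique, and its partner XLOC_009829 at 25.3, 19.5 and 26.4. XLOC_006070 (chromosome 1, 11670611 to 11670732) spans 122 bp, holds no gene of the reference table, and was at 341, 369 and 379 FPKM. XLOC_023505 (chromosome 4, 537990 to 543869) was at 298, 359 and 347 FPKM. A further 3 steady identifiers, XLOC_025863, XLOC_025867 and XLOC_025882, lay in 1 interval of 249938 bp on chromosome 4 that holds 69 identifiers and 87 reference genes. No gene can be assigned to those by position.

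Membership depended on how the libraries were scaled against each other, and a limit of 25% is of the same order as the divisors involved. The median-ratio divisors were 1.06 for leaf, 0.94 for inflorescence and 0.99 for silique, and the upper-quartile divisors 1.05, 0.92 and 1.03. With the first, 223 loci were steady, of which 138 were among the 200. With the second, 227 were steady, of which 131 were among the 200. Under both scalings 125 of the 200 stayed steady, and 56 did so under neither. Of the 10 named loci with the highest mean level, UBQ11, AT4G21105, cICDH, AT5G47030 and AT3G08610 stayed steady under both. The other 5, AT4G40030, ARFA1E, LOS1, AT1G72020 and AT2G20820, did not. AT1G72020 was at 250, 289 and 275 FPKM in leaf, inflorescence and silique, and AT2G20820 at 209, 248 and 245. Other loci described above that were steady under neither included ATP5, FKBP12, VDAC1, CYT1, GR-RBP2, AT5G08670, NADP-ME4, NRPB10, ATG8B, EIF4A-III, RIP1, DL1 and DRH1. They also included AT2G14878, EMB2816, RS2Z32, NTRA, PHB2, PP2A-3, ERF3, SAPX and XLOC_023505. Some of these loci no longer reached 50 FPKM in each organ. UBQ4, CDC48, RPN1A, CUL1, CAM5, HSP81-2, ATP3, CI51 and AT1G51980 also stayed steady under both.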

How the data were processed

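Strand-specific RNA-seq of leaf, inflorescence and silique was deposited by the authors as FPKM per locus, 1 file per organ. TopHat and build TAIR10 are named in the submitters' processing notes; for the quantification tool, annotation, fragment totals and scaling, the sources used here say nothing. The FPKM values were used as deposited, with no pseudocount. Joined identifiers on chromosomes 1 to 5 were selected by the floor of 50 FPKM and the ratio limit; the members and lists were chosen with earlier results of these data known. The lists of oxidative phosphorylation subunits, cytosolic ribosomal proteins and gene families were drawn up after the values were seen. A locus was named when alone at its position and when exactly 1 gene of the RefSeq table (TAIR10.1) had at least 50% of its length inside, covered at least 50% of the locus and lay so nowhere else; 25934 loci were named. TAIR10 coordinates were raised by 1 at the start to be 1-based.

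Genes given in full were the 10 highest and 5 most even named loci, the 5 nearest either side of the limit, the 3 narrowest and widest, up to 4 steady and the least even abundant gene per list, all reference genes and the 3 highest unnamed loci; further named members were chosen after their values were seen, to show their roles. Alternatives varied floor, limit, scaling, shared positions and a pseudocount of 1. Selection was tested on simulated data. Python 3.11.15, pandas 2.3.3, numpy 2.4.6, scipy 1.17.1 and matplotlib 3.10.9 were used.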

Additional observations from a re-analysis of the deposited data

How the results depend on the processing

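The number of steady abundant loci, 200, became 774 with a floor of 20 FPKM and 61 with a floor of 100 FPKM, 43 with a ratio limit of 1.1 and 597 with a limit of 1.5. Their share of the abundant loci was 13.8% with the floor of 20 FPKM and 7.0% with that of 100 FPKM. The share stayed between 9.83% and 11.3%, and the number between 159 and 227, when the libraries were rescaled, when loci at shared positions were left out, or when 1 was added to each FPKM. The median width was 2199 bp for loci alone at their position and 2559 bp for members chosen after median-ratio scaling. Steady genes of the first set of lists numbered 23, 25 after median-ratio scaling and 80 with a limit of 1.5. Scaling by the upper quartile for the lists, and organ orders after scaling, were added after seeing the data. The organ most often highest among the 200 loci was silique as deposited and inflorescence after either scaling.

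No paired analysis was possible because each organ had 1 library, and for the same reason leaving out a library was not possible. The planned count of promoter motifs was not run, since no promoter sequence was at hand. Without counts, the sampling error of a ratio is unknown.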
